A study of Mus musculus with 18 samples.

Results

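The 10 genes described here mark endothelial cells and carry their main angiogenic receptors: Pecam1, Cdh5, Kdr, Flt1, Tie1, Tek, Emcn, Aplnr, Vwf and Eng. They were chosen by name, with earlier results of these data known, by a rule that uses no measured value, and each was matched to 1 of the 51435 genes of the deposited tables by its Ensembl identifier. All 10 were expressed in every one of the 18 mice, with between 596 and 9289 expected counts per gene and mouse.

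The libraries come from left ventricular RNA of 9 WT and 9 WWP2Mut/Mut mice on a C57BL/6J background. The mutants carry a CRISPR/Cas9 deletion of 4 bp in exon 2 of Wwp2, which encodes an E3 ubiquitin ligase, and the change is in the germline rather than in 1 cell type. The paper reports that this deletion removes the full-length and N-terminal proteins, while the C-terminal isoform, WWP2-C, was unchanged in the heart. Both genotypes received angiotensin II (AngII), a pressor peptide that also provokes cardiac fibrosis, by minipump at 500 ng/kg/min for 28 days from 8 weeks of age. There was no uninfused group among these libraries, so the comparison of genotypes is one between infused hearts. The libraries held between 24566994 and 37451087 expected counts, and the mice were spread over 4 sequencing lanes, each with both genotypes. The targeted gene Wwp2 was at 5.09 ± 0.600 TPM (SD, n = 9) in WT and 1.72 ± 0.528 TPM (SD, n = 9) in WWP2Mut/Mut mice, with the highest mutant at 3.00 TPM and the lowest WT mouse at 3.83 TPM. In 5 of the 18 libraries, those of WT mice 43-3, 45-1 and 84-2 and of mutants 22-3 and 8-2, the atrial myocyte genes Myl7 (48.7 to 338 TPM), Myl4 (40.2 to 255 TPM) and Sln (4.23 to 35.1 TPM) stood apart from the other 13, which held up to 7.14, 9.53 and 0.46 TPM. These 5 go against a label of left ventricle alone, and the genotype fits and the correlations between the genes are given below with and without them. TPM (a transcript share scaled to a fixed total) corrects a gene's count for its length, so that levels can be compared between genes. The deposited TPM, without rRNA and mitochondrial genes, summed to 671770 to 826381 per mouse, so their total was not fixed between mice.

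Endothelial cells line every vessel of the heart and are held together by adhesion molecules such as PECAM1 and VE-cadherin. They sense vascular endothelial growth factor (VEGF) through receptor tyrosine kinases, of which KDR carries most of the growth signal while FLT1 binds ligand tightly and limits it. Another receptor system, formed by TIE1 and TEK with the angiopoietins, keeps mature vessels quiescent, and endoglin serves the BMP9 and BMP10 branch of the TGF-beta superfamily in the same cells. In whole ventricular tissue, fewer endothelial cells and less RNA of a gene per endothelial cell cannot be told apart.

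Many endothelial genes are bound by transcription factors of the ETS family, whose core motif is GGAA. RefSeq promoter windows of GRCm38.p6 were found for 6 of the 10 genes (Kdr, Flt1, Tie1, Tek, Emcn and Eng). The 250 bases upstream of the start are printed for 4 of them, because in CPM Kdr varied closely with Tek from mouse to mouse, and Emcn less closely with Eng, while Kdr and Emcn did not vary together. They are written 5′ to 3′ on the strand of the gene, with GGAA, or TTCC where the motif lies on the other strand, in capitals. The windows are chr5:75978456-75978705 on the minus strand for Kdr, chr4:94739039-94739288 on the plus strand for Tek, chr3:137340828-137341077 on the plus strand for Emcn and chr2:32646345-32646594 on the plus strand for Eng.
Kdr: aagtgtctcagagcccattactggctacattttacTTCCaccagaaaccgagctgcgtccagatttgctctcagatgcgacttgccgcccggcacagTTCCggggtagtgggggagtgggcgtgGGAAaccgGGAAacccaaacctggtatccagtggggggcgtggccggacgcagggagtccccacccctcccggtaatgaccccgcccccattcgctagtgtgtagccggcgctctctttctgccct
Tek: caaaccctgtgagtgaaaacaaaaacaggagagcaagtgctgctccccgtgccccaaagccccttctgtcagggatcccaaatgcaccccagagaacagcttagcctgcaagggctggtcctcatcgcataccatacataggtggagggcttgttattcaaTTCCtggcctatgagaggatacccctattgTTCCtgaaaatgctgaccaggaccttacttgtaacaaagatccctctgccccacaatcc
Emcn: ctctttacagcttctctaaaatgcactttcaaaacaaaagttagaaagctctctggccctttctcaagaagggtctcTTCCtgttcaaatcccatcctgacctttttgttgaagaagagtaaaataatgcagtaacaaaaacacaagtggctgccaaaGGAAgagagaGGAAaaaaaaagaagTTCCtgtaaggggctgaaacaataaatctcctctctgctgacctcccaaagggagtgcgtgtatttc
Eng: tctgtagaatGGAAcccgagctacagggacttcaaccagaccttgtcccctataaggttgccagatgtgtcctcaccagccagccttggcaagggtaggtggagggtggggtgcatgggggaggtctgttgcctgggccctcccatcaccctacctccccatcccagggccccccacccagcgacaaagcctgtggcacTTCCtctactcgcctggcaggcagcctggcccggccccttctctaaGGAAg
The GGAA core occurred 4 times in the Kdr window, 2 times for Tek, 4 times for Emcn and 3 times for Eng. It also occurred 4 times for Flt1 and 7 times for Tie1. This short motif is common: 93.4% of 32851 RefSeq windows of the same length held at least 1 copy, 33.4% held 4 or more and 3.82% held 7 or more. The longer form AGGAAG, which contains the core, was found 2 times each in the windows of Flt1, Emcn and Eng and 1 time for Tie1, against 29.5% of all windows with at least 1. It was absent from the letters of the Kdr and Tek windows. GC content ran from 40.8% for Emcn to 70.4% for Flt1. The TATAAA letters were present for Flt1 alone among the 6 windows, and in 12.4% of all windows.

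The levels of the genes were compared with each other as TPM over all 18 mice. In order of mean TPM they were Eng, Cdh5, Pecam1, Emcn, Tie1, Kdr, Aplnr, Flt1, Vwf and Tek, from 46.7 ± 7.99 TPM for Eng to 9.84 ± 1.89 TPM for Tek (SD, n = 18). Neighbors were compared within each mouse by a two-sided exact sign-flip permutation test on log2(TPM + 1), with Benjamini-Hochberg adjustment over the 9 neighboring pairs. Eng was above Cdh5 in 15 of 18 mice (adjusted p = 0.00332), and Pecam1 was above Emcn in 13 of 18 (adjusted p = 0.00333). Emcn was above Tie1 in 18 of 18 mice, at 33.1 and 24.2 mean TPM (adjusted p = 6.87e-05, from the smallest p these flips allow). Kdr was above Aplnr in 17 of 18 mice, at 22.1 and 12.6 mean TPM, with the same adjusted p.

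The other 5 neighboring pairs did not differ beyond their spread. Cdh5 and Pecam1 had a mean difference of -0.0030 ± 0.117 on the log2 scale (SD, n = 18, adjusted p = 0.998, exact permutation test). The same held for Tie1 and Kdr (adjusted p = 0.0764), Aplnr and Flt1 (0.998), Flt1 and Vwf (0.210) and Vwf and Tek (0.998). The plot of TPM by mouse shows the steps, with Eng, Cdh5, Pecam1 and Emcn above Tie1 and Kdr, and with Aplnr, Flt1, Vwf and Tek lowest.

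**Figure D1:**
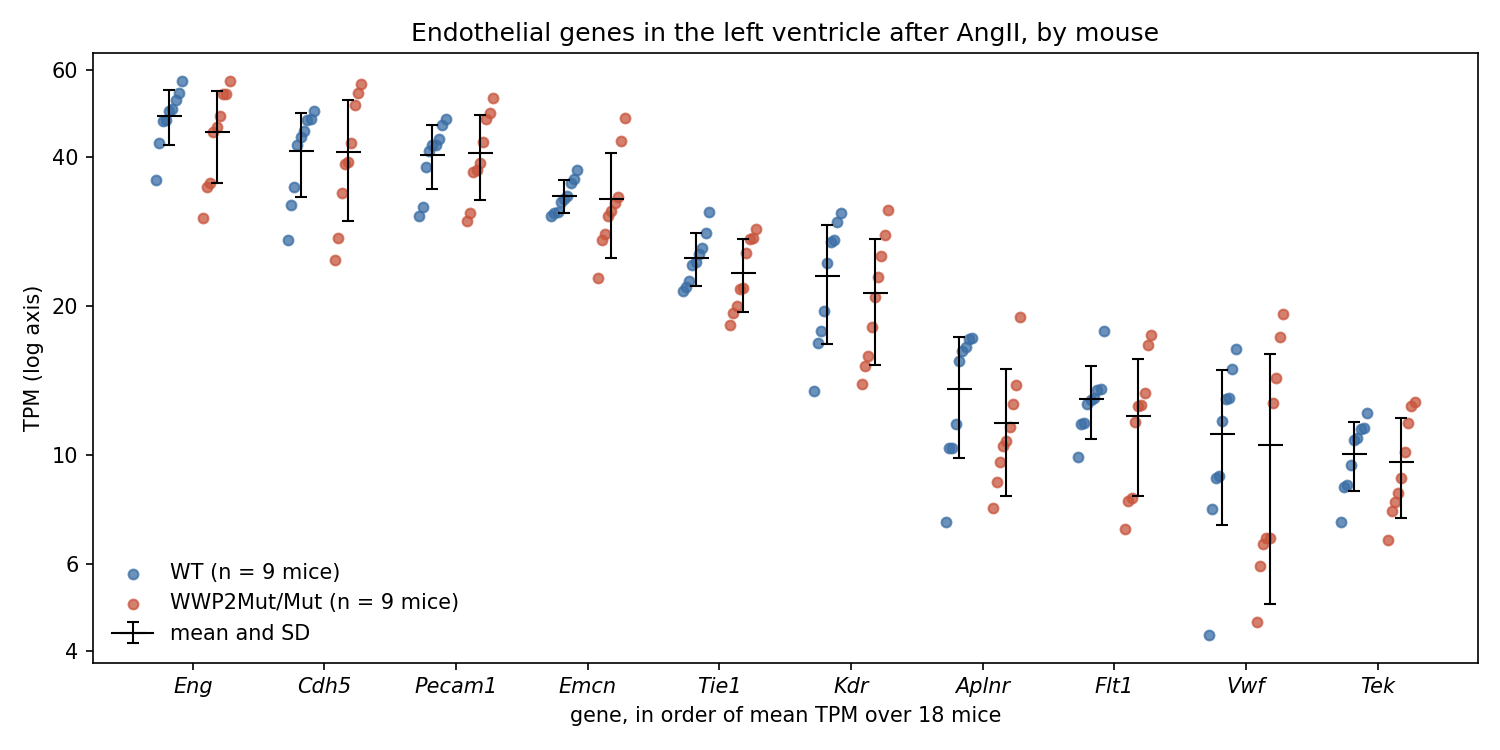
TPM of each gene on a log axis, with 1 point per mouse (blue WT, red WWP2Mut/Mut, 9 mice each) and the mean and SD in black. The genes step down from Eng at 46.7 TPM to Tek at 9.84 TPM, and the points of the 2 genotypes overlap for every gene.

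The central comparison asks whether this mutation of Wwp2 changes these genes in the AngII-treated heart. None of the 10 was called. Under edgeR's quasi-likelihood test on the expected counts, with RNA concentration and lane as covariates, 0 of the 10 had a false discovery rate (FDR) below 0.05 after Benjamini-Hochberg adjustment, and 0 of 10 had an unadjusted p below 0.05. Over all 24804 genes tested, 0.00403% passed the FDR threshold, which is 1 gene, Wwp2 itself, and 3.66% had an unadjusted p below 0.05. DESeq2 likewise called 1 gene and none of the 10, with 0 of the 10 at an unadjusted p below 0.05. The median log2 fold change, mutant minus WT, was -0.03 over the 10 genes and -0.01 over all genes tested, and 7 of the 10 values were negative against 51.9% of all genes. Without the 5 libraries with atrial myocyte genes, 0 of the 10 were called by edgeR and 0 had an unadjusted p below 0.05, in 6 WT and 7 mutant mice. Of 24087 genes tested there, 0 were called and 510 had an unadjusted p below 0.05, and Wwp2 itself stood at -1.26 with an adjusted p of 0.204. The log2 fold changes of the 10 then ran from -0.16 for Flt1 to 0.19 for Emcn. An adjusted p of 1, which every one of the 10 received from edgeR, does not show that the genotypes are equal, so the 95% interval of each difference is given below.

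Among the junction genes, Pecam1 (ENSMUSG00000020717) encodes CD31, an adhesion molecule at endothelial contacts. It lies on the minus strand of chromosome 11 of GRCm38, from 106654217 to 106750628, with 8 annotated transcripts. WT mice ranged from 30.3 to 47.7 TPM with a median of 42.2, and WWP2Mut/Mut mice from 29.7 to 52.7 TPM with a median of 38.9. Of the 9 mutants, 5 lay inside the WT range, 3 above it and 1 below it, so the ranges of the genotypes overlapped. In CPM 4 mutants lay inside the WT range, 4 above it and 1 below it. The mean TPM was 40.3 ± 5.99 in WT and 40.7 ± 7.99 in mutants (SD, n = 9 each, two-sided exact permutation test, p = 0.913). In edgeR the log2 fold change was 0.05 (standard error 0.106, 95% interval -0.18 to 0.27), and 0.15 without the covariates. In CPM the log2 ratio of the means was 0.15 as well, with an exact permutation p of 0.0966, the smallest of the 10 in CPM.

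Cdh5 (ENSMUSG00000031871) encodes VE-cadherin, the cadherin of endothelial adherens junctions. Its locus, chromosome 8 from 104101625 to 104144511 on the plus strand, lies 3.29 Mb from Wwp2 on the same chromosome. WT mice ranged from 27.2 to 49.4 TPM (median 43.8) and mutants from 24.8 to 56.2 TPM (median 39.0). Mutants were both above and below the WT mice, with 3 above the WT range and 1 below it. The means were 41.1 ± 7.87 and 40.8 ± 11.2 TPM (SD, n = 9 each, exact permutation p = 0.955), and the log2 fold change was -0.02 (standard error 0.132, 95% interval -0.30 to 0.26). An annotated antisense gene overlaps Cdh5 and had a mean of 0 TPM.

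The VEGF receptors came next in the comparison. Kdr (ENSMUSG00000062960), the main signaling receptor of VEGF-A, lies on chromosome 5 from 75932827 to 75978458, on the minus strand. WT mice had 13.5 TPM at the lowest, 24.4 at the median and 30.8 at the highest. Mutants had 13.9, 20.9 and 31.3 TPM, and 8 of the 9 lay inside the WT range. The means were 22.9 ± 6.17 and 21.2 ± 6.06 TPM (SD, n = 9 each, exact permutation p = 0.552), and the edgeR log2 fold change was -0.09 (standard error 0.158, 95% interval -0.42 to 0.24).

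Flt1 (ENSMUSG00000029648), the receptor that binds VEGF-A, VEGF-B and placental growth factor, lies on chromosome 5 from 147561604 to 147726011, also on the minus strand. WT mice held 9.87, 12.9 and 17.8 TPM as lowest, median and highest, and mutants 7.06, 12.6 and 17.5 TPM. The 3 lowest mice of all were mutants, with 7.06, 8.07 and 8.17 TPM, below every WT mouse, while the other 6 mutants lay inside the WT range. With means of 12.9 ± 2.17 and 11.9 ± 3.69 TPM (SD, n = 9 each), the exact permutation p was 0.496. The log2 fold change of -0.17 (standard error 0.143, 95% interval -0.47 to 0.13) had the smallest unadjusted p of the 10 in edgeR, 0.245. Without mutant 24-3 it was -0.33 with an unadjusted p of 0.0498, and without mutant 52-1 -0.090. With limma on log2(TPM + 1) and the same covariates, Flt1 stood at -0.35 (unadjusted p = 0.0408), but its adjusted p was 0.807.

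For the angiopoietin receptors the mice overlapped in the same way. Tie1 (ENSMUSG00000033191), an orphan partner of TEK, lies on chromosome 4 from 118471191 to 118490061 on the minus strand. It ran from 21.42 to 30.97 TPM in WT (median 24.6) and from 18.3 to 28.6 TPM in mutants (median 21.7). Here 3 mutants lay below every WT mouse and none above. In CPM 6 mutants lay inside the WT range, 2 above it and 1 below it. The means were 25 ± 3.11 and 23.3 ± 3.92 TPM (SD, n = 9 each, exact permutation p = 0.321), whereas the log2 fold change in edgeR was 0.01 (standard error 0.110, 95% interval -0.22 to 0.24).

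Tek (ENSMUSG00000006386), which encodes TIE2, the receptor of the angiopoietins, lies on the plus strand of chromosome 4 from 94739289 to 94874976. It was the lowest of the 10 in mean TPM, with 7.30, 10.7 and 12.2 TPM as lowest, median and highest in WT and 6.72, 8.97 and 12.8 TPM in mutants. Of the mutants, 6 lay inside the WT range, 2 above and 1 below. The means were 10.04 ± 1.60 and 9.64 ± 2.21 TPM (SD, n = 9 each, exact permutation p = 0.665), and the log2 fold change was -0.03 (standard error 0.123, 95% interval -0.29 to 0.23).

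Emcn (ENSMUSG00000054690) encodes endomucin, a sialomucin of capillary and venous endothelium, and lies on chromosome 3 from 137341067 to 137432185 on the plus strand. The 9 WT mice ran from 30.4 to 37.7 TPM with a median of 32.9. Mutants spread from 22.8 to 48.0 TPM with a median of 31.1, and only 3 of the 9 lay inside the WT range, with 4 below and 2 above. In CPM the WT range was wider, 43.8 to 79.7 CPM, and 6 of the 9 mutants lay inside it, with 1 below and 2 above. The group means were close, at 33.3 ± 2.54 and 32.9 ± 7.93 TPM (SD, n = 9 each, exact permutation p = 0.869). The log2 fold change was 0.18, the largest positive one of the 10 with both covariates (standard error 0.170, 95% interval -0.18 to 0.53). Without covariates it was 0.11, below Pecam1 at 0.15 and Cdh5 at 0.13. It changed with single mice, with 0.0027 without mutant 24-3 and 0.097 without mutant 54-1, and it was 0.046 with gene body coverage as a further covariate.

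Aplnr (ENSMUSG00000044338) encodes the receptor of the peptide apelin, found on venous and sprouting endothelium. It lies on chromosome 2 from 85136225 to 85139923, on the plus strand, and is the most compact of these loci. WT mice had 7.29, 15.5 and 17.2 TPM as lowest, median and highest, and mutants 7.81, 10.7 and 19.0 TPM. In 8 of 9 mutants the value was below the WT median, yet 8 of 9 also lay inside the WT range. The means of 13.6 ± 3.70 and 11.6 ± 3.33 TPM (SD, n = 9 each) gave the smallest exact permutation p of the 10 in TPM, 0.245. The log2 fold change was -0.11 (standard error 0.214, 95% interval -0.56 to 0.34).

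Vwf (ENSMUSG00000001930) encodes von Willebrand factor, the clotting protein that endothelial cells and megakaryocytes store, and lies on chromosome 6 from 125546774 to 125686679 on the plus strand. It varied most of the 10 in TPM, from 4.32 to 16.3 TPM in WT (median 11.7) and from 4.59 to 19.3 TPM in mutants (median 6.79). The mutants fell into 5 mice at 6.79 TPM or less and 4 mice at 12.7 TPM or more, but in CPM, here the count scaled by library size and edgeR's TMM factor and not by gene length, the gap was not seen, with 37.6 CPM in a mouse at 17.3 TPM and 38.4 CPM in one at 6.79 TPM. The means were 11.003 ± 3.79 and 10.5 ± 5.49 TPM (SD, n = 9 each, exact permutation p = 0.813). The log2 fold change, -0.25, was the largest in size with the RNA concentration and lane covariates (standard error 0.219, 95% interval -0.71 to 0.21). It was -0.063 without covariates and -0.079 with lane alone, smaller in size than that of Pecam1, and -0.35 with gene body coverage added (unadjusted p = 0.0788 in edgeR). Without mutant 24-3 it was -0.44 and without mutant 53-1 -0.093, smaller in size than those of Emcn and Flt1 in the same fit, and it was -0.11 without the 5 libraries with atrial myocyte genes. The platelet and megakaryocyte markers Pf4, Ppbp, Itga2b, Gp1bb, Gp9 and Treml1 summed to 13.6 to 21.3 CPM in WT and 11.4 to 25.2 CPM in mutants, and 1 of the 6 was at 0 in some mouse. In TPM they summed to 17.9 to 35.7 over all mice, most of it Pf4 at 27.8 ± 3.85 TPM in WT and 24.8 ± 4.59 in mutants (SD, n = 9 each), above the mean of Vwf. Pf4 alone was above Vwf. The highest of the other markers, Itga2b, had means of 0.844 TPM in WT and 0.698 TPM in mutants. The part of these 6 markers in the Vwf signal was not tested.

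Eng (ENSMUSG00000026814), the endoglin coreceptor, had the highest mean level and lies on chromosome 2 from 32646595 to 32682669, on the plus strand. WT mice had 36.0, 49.5 and 56.8 TPM as lowest, median and highest, and mutants 30.1, 46.1 and 57.0 TPM. Of the mutants, 5 were inside the WT range, 3 below it and 1 above it. The means were 48.4 ± 6.18 and 44.9 ± 9.51 TPM (SD, n = 9 each, exact permutation p = 0.360), and the log2 fold change was -0.04 (standard error 0.135, 95% interval -0.32 to 0.25). The gene Fpgs overlaps the Eng locus on the opposite strand, at a mean of 2.73 TPM.

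The signs of these small differences moved with the fit. With both covariates 7 of 10 log2 fold changes were negative, without covariates 2 of 10 were, with lane alone 2 of 10 and with RNA concentration alone, a fit added after the data were seen, 8 of 10. On the TPM scale in limma all 10 were negative, but so were 73.7% of all genes tested, and the median over all genes moved to -0.04 with a pseudocount of 1 and to -0.11 with 0.1. RNA concentration itself differed between the genotypes, with a median of 98.3 ng/µl in WT and 187 ng/µl in WWP2Mut/Mut mice (two-sided exact permutation test, p = 0.0422). One WT mouse, 43-3, is listed at 1.68 ng/µl, and 7 of 10 log2 fold changes were also negative without it.

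Within lanes the direction was mixed as well. Mean TPM was lower in mutants in 2 of the 4 lanes for Pecam1, Cdh5, Kdr, Tek, Emcn and Eng, and in 3 of 4 for Flt1, Tie1, Aplnr and Vwf. Mean CPM was lower in mutants in 1 of 4 lanes for Pecam1, Cdh5, Flt1, Tie1, Emcn and Eng, in 2 of 4 for Kdr and Tek and in 3 of 4 for Aplnr and Vwf. Kdr, for example, stood at 20.6 TPM in WT and 20.1 in mutants in lane 1 and at 18.7 and 22.6 in lane 2. In lane 3 it was at 29.0 and 17.0 TPM, and in lane 4 at 23.3 and 24.4. No gene of the 10 was lower in mutants in 4 of 4 lanes, or higher in 4 of 4.

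**Figure D2:**
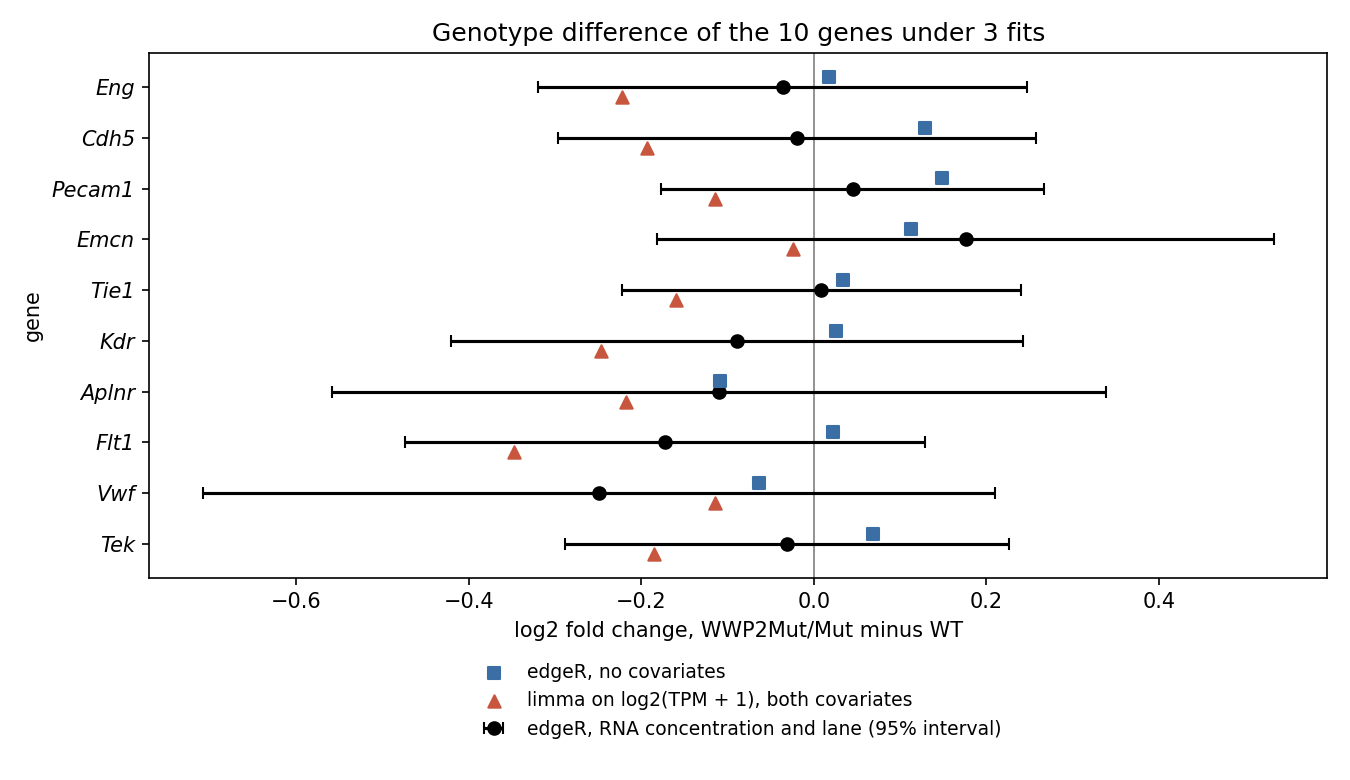
Log2 fold change, WWP2Mut/Mut minus WT, of each gene under edgeR with RNA concentration and lane (black, with its 95% interval), edgeR without covariates (blue squares) and limma on log2(TPM + 1) with both covariates (red triangles). All 10 black intervals include 0, and for 8 of the 10 genes the blue and red points fall on opposite sides of 0.

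The mice of a genotype differed more from each other than the genotypes did. On TPM the coefficient of variation between mice was larger in WWP2Mut/Mut than in WT for 10 of the 10 genes, against 42.1% of 11328 expressed genes. In CPM it was larger for 8 of 10, against 63.1% of expressed genes. Emcn showed the widest contrast on TPM, with 7.62% in WT and 24.1% in mutants, and for Flt1 the values were 16.8% and 30.8%. In CPM these were 19.0% and 29.4% for Emcn and 18.6% and 25.7% for Flt1. On that scale the contrast was widest for Vwf, at 16.9% and 40.8%, where mutant 1-2 alone reached 73.4 CPM. None of these differences in spread passed an exact permutation test of the absolute deviations from the group median (two-sided, smallest p = 0.0951, for Emcn TPM), and the genes vary together, so that the 10 do not count as 10 separate results. The comparison was made after the values were seen.

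The same mice were low or high for many of the genes. In CPM, mutant 8-2 was among the 3 lowest of 18 mice for 8 of the 10 genes and mutant 53-1 for 5 of 10. At the other end, mutants 54-1 and 62-1 were each among the 3 highest for 6 of 10, and WT 16-1 for 4 of 10. The summed CPM of the 10 genes ran from 1060 to 1419 in WT mice (median 1196) and from 976 to 1538 in mutants (median 1350), so the mutants held both the lowest and the highest mice. In TPM the sums ran from 220 to 287 in WT and from 177 to 309 in mutants, and the order of the medians turned round, at 264 in WT and 246 in mutants.

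How the genes varied together was measured by Pearson's r and Spearman's rho of log2(CPM + 1) over the 18 mice, on the same TMM-scaled CPM. All 45 pairs had a positive r, from 0.02 to 0.92 with a median of 0.45, and for r 15 of 45 passed a permutation test with Benjamini-Hochberg adjustment over the 45 pairs. For rho the same 15 pairs passed, and 4 others with them: Cdh5 with Eng, Tie1 with Vwf, Tek with Aplnr and Vwf with Eng. On log2(TPM + 1) 22 of 45 passed for r. On log2(CPM + 1), 7 of 45 pairs had a negative r within WT mice (median 0.38) and 1 of 45 within mutants (median 0.63), a difference that was not tested. How many of all pairs of expressed genes would pass was not tested. The mice share tissue, library preparation and lanes, which can also move genes together. Within lanes 4 or 5 mice are too few for a correlation, so lane, RNA concentration and genotype were instead taken out as covariates, and 18 of 45 pairs then passed. Without the 5 libraries with atrial myocyte genes, 11 of 45 passed over 13 mice, with a median r of 0.48.

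The tightest pair was that of the junction genes. Pecam1 and Cdh5 had r = 0.92 and rho = 0.91 (permutation p = 1e-05 for both, the smallest that 100000 permutations give, adjusted p = 0.00045). Without the 2 mice farthest from the median of Pecam1, r was 0.87, and it was 0.83 within WT and 0.96 within WWP2Mut/Mut mice. Among 11335 other expressed genes, Cdh5 was the one with the highest r to Pecam1, and Pecam1 the one with the highest r to Cdh5.

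The receptor kinases Kdr, Tek and Flt1 followed the junction genes. The 10 pairs among Pecam1, Cdh5, Kdr, Tek and Flt1 had r between 0.66 and 0.92, and all 10 passed the adjusted permutation test. Their r ran from 0.23, for Cdh5 with Flt1, to 0.86 within WT and from 0.78 to 0.96 within mutants, a difference that was not tested. Without the 5 libraries with atrial myocyte genes r was 0.62 to 0.93 and 8 of 10 passed, all but Flt1 with Cdh5 (0.66, adjusted permutation p = 0.0502) and with Tek (0.62, 0.0822). Kdr and Tek, receptors of different ligands, had r = 0.80 and rho = 0.80 (adjusted permutation p = 0.000675 and 0.00117), and r was 0.74 without the 2 most extreme mice. For Kdr and Cdh5 r was 0.82 and rho 0.79 (adjusted permutation p = 0.00045 and 0.00135). The VEGF receptor pair Kdr and Flt1 had r = 0.69 and rho = 0.58 (adjusted permutation p = 0.0081 and 0.0379), with 0.40 within WT and 0.91 within mutants, a difference that was not tested. Tek had 5 of the other 9 genes among the 100 expressed genes most correlated with it, and Pecam1, Cdh5, Kdr and Flt1 had 4 each.

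In CPM, Tie1 and Emcn each had their 2 highest r with Eng and with each other, while Eng was closer to Flt1 (0.68) and Tek (0.65) than to Emcn. Tie1 and Eng had r = 0.85 and rho = 0.84 (adjusted permutation p = 0.00045 and 0.0009), 0.83 without the 2 most extreme mice. For Tie1 and Emcn r was 0.76 and rho 0.75 (adjusted permutation p = 0.00101 and 0.00259), and for Eng and Emcn r was 0.57 and rho 0.56 (0.0384 and 0.0421), with r = 0.49 and no pass without the 5 libraries (adjusted permutation p = 0.190). Between these 3 genes and the 5 above, r ran from 0.02 to 0.68 over 15 pairs, of which Eng with Flt1 and Eng with Tek passed for r, and 0 of 15 without the 5 libraries. Kdr and Emcn, both capillary genes, were the loosest pair, with r = 0.02 and rho = -0.03 (permutation p = 0.952 and 0.921). Tie1 and its partner Tek had r = 0.53 and rho = 0.51, which did not pass (adjusted permutation p = 0.0663 and 0.0661).

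The pattern was different on the TPM scale. The 15 pairs between the 2 groups of genes then had a median r of 0.61, with 10 of 15 passing, against a median of 0.43 and 2 of 15 in CPM. Tie1 and Tek reached r = 0.65 (adjusted permutation p = 0.00974), Tie1 and Cdh5 0.74 (0.00172) and Tie1 and Kdr 0.61 (0.0188). Among Tie1, Eng and Emcn the median r was 0.54, and Eng and Emcn fell to 0.33 (adjusted permutation p = 0.254). Emcn stayed loosely tied to the 5 genes in either unit, with r = 0.12 to Kdr on TPM. These groupings of genes were read from the CPM correlations themselves and so carry no test of their own.

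Over its 9 pairs Emcn had a median r of 0.28, Aplnr 0.37 and Vwf 0.38. For r and over all 18 mice, none of the 9 pairs with Aplnr and none of the 9 with Vwf passed, with values from 0.21 to 0.47 for Aplnr and from 0.15 to 0.54 for Vwf. For rho, Tek and Aplnr (0.56, adjusted permutation p = 0.0421), Tie1 and Vwf (0.62, 0.0241) and Vwf and Eng (0.60, 0.0310) passed. Without the 5 libraries with atrial myocyte genes, Aplnr and Tie1 went from r = 0.36 to 0.74 and passed (adjusted permutation p = 0.0185). With lane, RNA concentration and genotype taken out, Vwf and Tie1 reached r = 0.75 (adjusted permutation p = 0.0022) and Vwf and Eng 0.65 (adjusted permutation p = 0.0125), while Tek and Aplnr reached 0.58 (adjusted permutation p = 0.0332). On the TPM scale 6 of the 9 pairs with Vwf turned negative, as far as -0.39 with Pecam1, whereas the 10 pairs of the junction and kinase genes rose to between 0.74 and 0.98. In CPM, 4 of the 9 pairs with Vwf were also negative within WT mice, as far as -0.44 with Flt1, and 0 of 9 within mutants. The median r of these pairs was 0.06 within WT and 0.53 within mutants, a difference that was not tested.

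**Figure D3:**
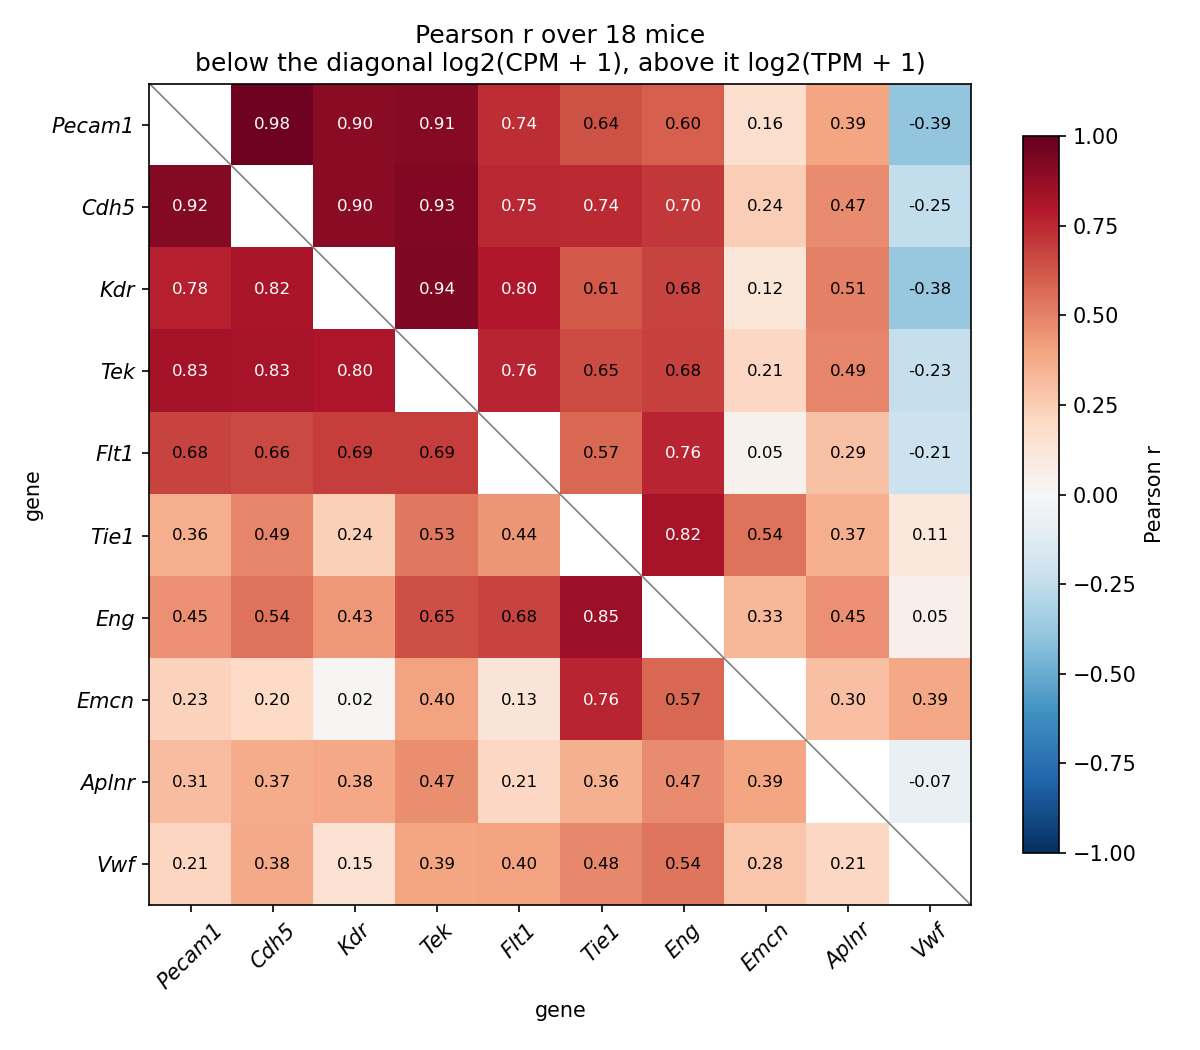
Pearson r over 18 mice for every pair of genes, on log2(CPM + 1) below the diagonal and log2(TPM + 1) above it, with red for positive and blue for negative r. The first 5 genes form a block with r of at least 0.66 in either unit, and Vwf turns from positive below the diagonal to as low as -0.39 above it.

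The unit also changed how the genes moved with RNA quality. The deposited sample table gives each library a gene body coverage fraction, between 0.0288 and 0.0540, which did not differ between genotypes (means 0.0387 ± 0.00861 and 0.0401 ± 0.00825, SD, n = 9 each, two-sided exact permutation p = 0.720). In CPM, Emcn rose with it (r = 0.79 and rho = 0.87 over 18 mice, adjusted permutation p = 0.0005 and 0.0002), and r was 0.81 without the 2 mice farthest from the median coverage. Tie1 rose too (r = 0.61 and rho = 0.61, adjusted permutation p = 0.0405 and 0.0383, 0.69 without the 2 mice). The other 8 genes did not pass, with r from -0.34 for Kdr to 0.50 for Eng.

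In TPM the picture changed. Pecam1 fell with coverage (r = -0.76, rho = -0.74, adjusted permutation p = 0.0028 for r), as did Kdr (-0.69 and -0.74, 0.00687), Cdh5 (-0.67 and -0.68, 0.00697) and Tek (-0.61 and -0.64, 0.0164). Without the 2 mice farthest from the median coverage these r were -0.63, -0.63, -0.50 and -0.56. Vwf went the other way and rose with coverage (r = 0.74, rho = 0.67, adjusted permutation p = 0.0041), with 0.73 without the 2 mice. For Emcn r in TPM was 0.36 and did not pass. The 5 genes that passed in TPM and the 2 that passed in CPM had no gene in common. How many of all expressed genes would pass in either unit was not tested, so these counts do not single out the endothelial genes. For Vwf in CPM r was 0.33 and rho 0.47, which did not pass (adjusted permutation p = 0.366 and 0.122).

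**Figure D4:**
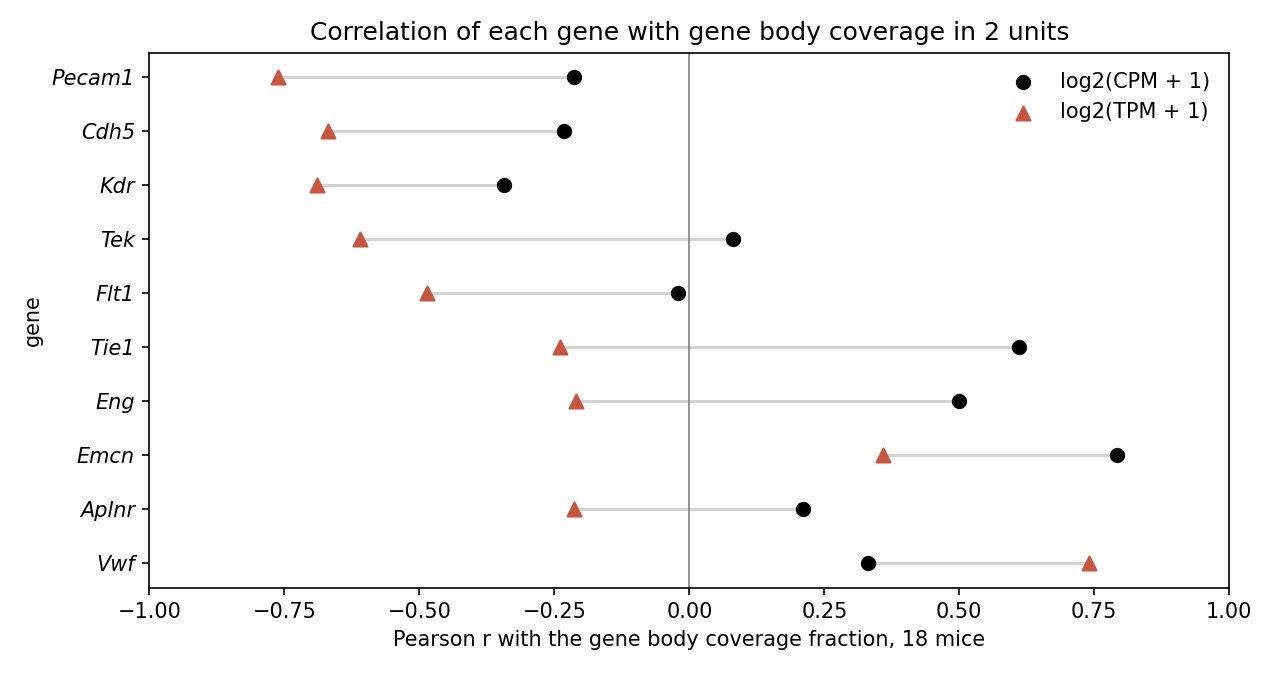
Pearson r of each gene with the gene body coverage fraction over 18 mice, in log2(CPM + 1) (black circles) and log2(TPM + 1) (red triangles), joined by a line for each gene. Emcn sits farthest right in CPM at 0.79, and the junction and kinase genes lie left of 0 in TPM while Vwf lies at 0.74.

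A gene's expected count divided by its TPM, relative to the same ratio of the median gene of that mouse, reflects the transcript length that the quantification used. For Kdr, Cdh5, Aplnr and Tie1 this ratio hardly moved between mice, with a coefficient of variation of 0.0985% to 0.279%, and for Pecam1 it was 1.56%. For Vwf it was 36.9%, more than in 99.3% of 11218 expressed genes, whose median was 3.29%. Relative to its mean over mice it ran from 0.465 in mutant 52-1 to 1.61 in WT 25-3, a 3.47-fold range, and it fell with coverage (r = -0.94, rho = -0.93 over 18 mice, given as a description). Vwf has 11 annotated transcripts between 334 and 8834 bases long. Whether the share of these isoforms differed between mice was not tested, since the deposited values are per gene. The CPM of Vwf is given beside its TPM for this reason.

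**Figure D5:**
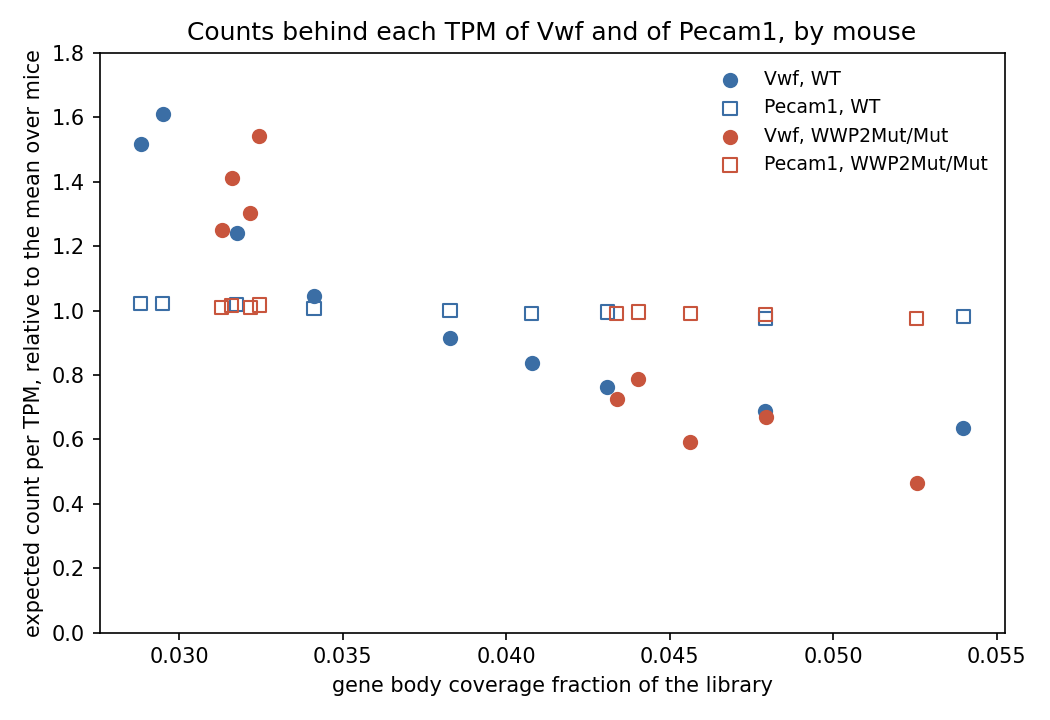
Expected count per TPM of Vwf (filled circles) and Pecam1 (open squares) in each of 18 mice, relative to the mean over mice, against the gene body coverage fraction (blue WT, red WWP2Mut/Mut). The Vwf points fall from 1.61 to 0.465 as coverage rises in both genotypes, while Pecam1 stays between 0.974 and 1.02.

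RNA concentration was correlated with the genes, too, in a comparison added after the data were seen. Pecam1 alone passed, in CPM for r and not for rho. In CPM Pecam1 had r = 0.62 and rho = 0.55 with it over 18 mice (adjusted permutation p = 0.0499 and 0.115), and Cdh5 0.56 and 0.54 (0.0672 and 0.115). For Pecam1 r was 0.55 without the 2 mice farthest from the median concentration. Within WT mice r was 0.14 for Pecam1 and within mutants 0.71, a difference that was not tested. The other 8 genes had r between -0.06 and 0.49. Since concentration also differed between genotypes, its share in the genotype differences cannot be told apart from that of the mutation beyond what the covariate takes out.

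The genes most like the set from mouse to mouse were found by r with the mean z-score of the 10 genes, over 11326 other genes with a mean of at least 1 TPM. The first was Mmrn2, which encodes an endothelial matrix glycoprotein, with r = 0.92 and rho = 0.91. Cyyr1 (r = 0.89) and Podxl (0.88), the latter encoding the sialomucin podocalyxin on the luminal face of endothelium, came next. They were followed by Galnt18 (0.85), Ehd2 (0.84), which encodes a caveolar protein, the ETS factor Elk3 (0.84) and the adhesion receptor Adgrl4 (0.83). Pcdh1 (0.81), the chemokine Cxcl12 (0.80) and the G protein subunit Gnb1 (0.80) closed the first 10. Their r stayed at 0.78 or more with lane, RNA concentration and genotype taken out, and on TPM it was 0.74 or more for 9 of the 10 and 0.59 for Gnb1. Mmrn2, at 9.79 ± 1.64 TPM (SD, n = 18), had a log2 fold change between genotypes of -0.09 (standard error 0.128, adjusted p = 1 in edgeR), and none of the 10 was called.

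The ligands and partners of the receptors were read from lists chosen by function. Of 112 such genes tested, in 13 lists, 0 passed the FDR threshold in either direction in edgeR or in DESeq2. In edgeR 2 had an unadjusted p below 0.05, and 66 had a negative log2 fold change, with a median of -0.03. Among the 6 tested VEGF and apelin ligands, 0 passed and 3 were negative. Vegfa, the main ligand of Kdr and Flt1, had the smallest p of them, with 130 ± 36.2 TPM in WT and 91.7 ± 38.9 TPM in mutants (SD, n = 9 each, two-sided exact permutation p = 0.0490, not adjusted). Its log2 fold change in edgeR was -0.30 (standard error 0.179, unadjusted p = 0.106, adjusted p = 1), so it is not a called difference. Apln, the ligand of Aplnr, was at 4.25 and 4.09 mean TPM.

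Of the co-receptors Flt4, Nrp1, Nrp2 and Plxnd1, 0 of 4 passed and 3 were negative, and Flt4, the lymphatic VEGF receptor, had the smallest p at -0.19 on the log2 scale (standard error 0.140). Of the angiopoietins, the TIE phosphatase Ptprb and Svep1, 0 of 5 passed and 4 were negative, and Svep1 had -0.23 (standard error 0.181). Of 13 genes of the endoglin and ALK1 pathway 0 passed and 6 were negative, and Smad9 had -0.32 (standard error 0.224) at under 1 TPM. Acvrl1, the ALK1 receptor that works with endoglin, stood at 14.7 ± 1.803 and 13.1 ± 1.92 TPM (SD, n = 9 each) with a log2 fold change of 0.03.

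Genes of endothelial subtypes gave the same picture. In junction and adhesion genes 0 of 11 passed and 3 of 11 were negative, against 51.9% of all genes tested, with the tight junction gene Cldn5 at 0.43 (standard error 0.223, unadjusted p = 0.0706). In transcription factors 0 of 14 passed and 6 were negative, with the flow-responsive Klf2 at 0.33 (standard error 0.235), and the ETS factor Erg had 7.09 TPM in both genotypes. In secreted and vascular tone genes 0 of 9 passed and 8 were negative, with Mmrn1 at -0.64 (standard error 0.338). In capillary genes 0 of 12 passed and 3 were negative, with Tcf15 at 0.33 (standard error 0.235). In arterial and Notch genes 0 of 13 passed and 8 were negative, with Bmx at -0.27 (standard error 0.275).

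Venous and endocardial genes had 0 of 8 called and 7 of 8 negative. Npr3, a natriuretic peptide clearance receptor of the endocardium, was at 1.16 ± 0.247 and 0.834 ± 0.276 TPM, and edgeR put the mutants at -0.50 on the log2 scale (standard error 0.206, adjusted p = 1, unadjusted p = 0.0250). Tip cell and sprouting genes had 0 of 9 called and 8 of 9 negative, with the chemokine receptor Cxcr4 at -0.30 (standard error 0.138, unadjusted p = 0.0439, adjusted p = 1 in edgeR). In lymphatic genes 0 of 5 passed and 4 were negative, with Pdpn at -0.27 (standard error 0.144), and in the inflamed endothelium genes 0 of 3 passed and 3 were negative, with Vcam1 at -0.23 (standard error 0.136). Since Wwp2 alone was called over all genes (0.00403% of those tested), a count of 0 cannot show whether a list stood out.

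Markers of other cells in the tissue were read in the same libraries. The cardiomyocyte markers Myh6, Tnnt2, Tnni3, Actc1, Myl2, Ryr2, Pln and Mb, which as a list do not tell ventricle from atrium, summed to 69860 to 100664 CPM in WT and 72231 to 101801 in mutants. The summed level of the 9 smooth muscle and pericyte markers, at 951 to 1657 CPM in WT and 1142 to 1643 in mutants, had r = 0.61 over mice with the mean z-score of the 10 endothelial genes. This passed for r and not for rho (adjusted permutation p = 0.0338 and 0.0650), and r was 0.50 without the 2 most extreme mice. For the 8 fibroblast markers, at 804 to 1478 and 939 to 1413 CPM, r was 0.05, for the 8 immune markers, at 288 to 497 and 350 to 478 CPM, 0.37, and for the cardiomyocyte markers 0.07. The sum of the 6 atrial markers ran from 318 to 1125 CPM in WT and 308 to 1093 in mutants. Its r was -0.20 and its rho -0.50 (adjusted permutation p = 0.706 and 0.0977), and r was -0.49 without the 2 most extreme mice. Most of that sum was Nppa, at 718 ± 235 TPM in WT and 641 ± 157 in mutants (SD, n = 9 each), which did not separate the 5 libraries named at the start (354 to 815 TPM) from the other 13 (317 to 1047). Liver markers summed to 28.3 to 413 TPM, with Alb up to 113 TPM, above every value of the 10 genes, and with 10 of 10 lower in mutants at an unadjusted p below 0.05 in edgeR and 0 of 10 called, and their sum in CPM ran from 47.1 to 554 CPM in WT and 44.5 to 164 in mutants. Their r with the endothelial genes was 0.13. The 5 liver sinusoid markers, Stab2, Clec4g, Oit3, Fcgr2b and Dnase1l3, had r = 0.53 and rho = 0.54. Neither passed (adjusted permutation p = 0.0896 and 0.0930), and the sum ran from 4.82 to 8.13 TPM. Nearly all of this was Fcgr2b, an Fc receptor that immune cells also express, at 6.33 ± 0.894 TPM in WT and 6.33 ± 0.934 in mutants (SD, n = 9 each), and each of the other 4 was under 1 TPM on average. Apart from leaving out the 5 libraries, the part of these other cells in the values of the 10 genes was not tested.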

How the data were processed

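The authors aligned the reads of the left ventricle libraries to the mouse genome m38 with STAR 2.5.2b, estimated gene levels with RSEM 1.2.31 on the Ensembl 89 annotation and left out rRNA and mitochondrial genes. The deposited tables hold expected counts per gene, not always whole (5.11% of values were not), the TPM of the same genes, which summed to 671770 to 826381 per mouse, and a table of RNA quality with the gene body coverage as a fraction, whose definition the sources used here do not give.

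From these, expected counts were rounded, genes with more than 1 count in total were kept, and genotype was tested with edgeR 4.0.16 (TMM, quasi-likelihood test, R 4.3.3) with centered RNA concentration and lane, the covariates of the study's model. P values were adjusted over the 24804 genes tested by Benjamini and Hochberg. DESeq2 1.42.0, limma 3.58.1, other filters, covariates and units, and the omission of each mouse were alternatives. TPM per mouse was compared by exact permutation over 48620 divisions of 18 mice, and correlations by 100000 permutations (Python 3.11.15, scipy 1.17.1). Scripts were tested on simulated data. As a check for a library deposited 2 times, counts were compared over genes between mice of a genotype, and no pair matched within counting noise (chi-square per gene 17.8 to 324 over 72 pairs).

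The members and gene lists were chosen with earlier results of these data known. The genes given by a rule are the 10 members, Wwp2 and the 10 genes most like the set. In each list of ligands, partners and endothelial subtypes it is the gene with the smallest p (or each one called). For the marker lists of other cells no such gene was picked. Apln, Acvrl1 and Erg, as partners of members, and Pf4, Itga2b, Fcgr2b, Alb, Nppa, Myl7, Myl4 and Sln were added after their values were seen. Other genes are named as members of a list or as overlapping a locus. Fits and correlations without the 5 mice with Myl7 of at least 10 TPM were also chosen after seeing the data. Gene symbols were matched for 99.6% of identifiers, and coordinates and transcripts are those of GENCODE vM21 on GRCm38. Promoter sequences are from RefSeq on GRCm38.p6.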

Additional observations from a re-analysis of the deposited data

Results flagged for a closer look

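Within each genotype, the highest and lowest mouse of each of the 10 genes were compared with their neighbor in TPM and in CPM, which makes 40 groups, of which chance marks about 1 in 20. Flt1 in WT had its highest mouse at 17.8 TPM, with the next at 13.6 TPM, so that the gap was 0.530 of the range, past the critical value of Dixon's test for 9 mice. Vwf in WT had its lowest mouse at 24.3 CPM, with the next at 37.1 CPM and a gap of 0.571 of the range. Both are WT mouse 25-3, which also had the highest TPM among WT mice for Pecam1, Cdh5 and Eng. In CPM the highest WT mouse was 67-1 for Pecam1 and Cdh5 and 16-1 for Flt1 and Eng.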

How the results depend on the processing

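Over all alternatives, 0 of the 10 genes and 0 of the pathway genes were called between genotypes, and 1 gene was called in all, except that 2 were called without WWP2Mut 1-2 or WT 84-2 (range 1 to 2 when each mouse was left out) and 0 without the 5 libraries with atrial myocyte genes, an alternative chosen after seeing the data. The genes that passed with gene body coverage were 2 in CPM and 5 in TPM, and the pairs that passed between the 5 junction and kinase genes and Tie1, Eng and Emcn were 2 of 15 in CPM and 10 of 15 in TPM. Signs of the log2 fold changes turned as follows, in no case with a called difference. Without covariates and with lane alone, Cdh5 was 0.13 and 0.14, Kdr 0.026 and 0.048, Flt1 0.022 and 0.044, Tek 0.068 and 0.078 and Eng 0.018 and 0.069. In limma on log2(TPM + 1) and log2(TPM + 0.1), Pecam1 was -0.11 and -0.12, Tie1 -0.16 and -0.17 and Emcn -0.025 and -0.026. Tie1 was -0.047 with gene body coverage added and -0.014 with RNA concentration alone. The ratio of group means, negative in TPM for 9 of 10, was positive in CPM for Cdh5 (0.13), Kdr (0.026), Flt1 (0.022), Tie1 (0.034), Tek (0.068), Emcn (0.11) and Eng (0.018), and for Cdh5 after rescaling TPM (0.029). With each mouse left out, the log2 fold change ranged from -0.10 to 0.049 for Cdh5, -0.19 to 0.045 for Eng, -0.0098 to 0.10 for Pecam1, -0.090 to 0.014 for Tek and -0.11 to 0.045 for Tie1. It kept its sign for Emcn (0.0027 to 0.26), Flt1 (-0.33 to -0.090), Vwf (-0.44 to -0.093), Aplnr (-0.27 to -0.025) and Kdr (-0.19 to -0.025). The log2 ratio of mean TPM then ranged from -0.079 to 0.060 for Cdh5, -0.11 to 0.034 for Emcn, -0.041 to 0.061 for Pecam1 and -0.23 to 0.027 for Vwf. Without the 5 libraries the log2 fold change of Cdh5 turned to 0.011, the log2 ratio of mean TPM to 0.032 for Cdh5 and 0.11 for Vwf, and r to -0.016 for Kdr with Emcn and -0.18 for Flt1 with Emcn. On TPM the r of Vwf turned to -0.39 with Pecam1, -0.25 with Cdh5, -0.38 with Kdr, -0.21 with Flt1, -0.23 with Tek and -0.073 with Aplnr. With coverage, r in TPM turned to -0.24 for Tie1, -0.61 for Tek, -0.21 for Aplnr and -0.21 for Eng. The cause was not tested. No paired analysis was possible because no mouse ID occurs in both genotypes and the sources used here do not say what the parts of an ID stand for, while each last digit recurs within a genotype. The paper describes the mice of the compared genotypes as male littermates. The litter of each mouse could not be read from the sources used here, and no test took litter into account. With 9 mice per genotype, the 95% intervals of the 10 genes reach from 0.612-fold to 1.45-fold.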

Other observations

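In TPM, WT mouse 25-3 combined the highest WT levels of Pecam1 (47.7), Cdh5 (49.4), Flt1 (17.8) and Eng (56.8) with the lowest Vwf of all 18 mice (4.32). This did not hold in CPM, where the highest WT mouse was 67-1 for Pecam1 and Cdh5 and 16-1 for Flt1 and Eng. Vwf in CPM was 24.3 in mouse 25-3 and lower in mutants 53-1 (18.9) and 8-2 (24.2). The gene body coverage of mouse 25-3 was 0.0295, near the lowest of all, 0.0288. WT mouse 43-3, whose RNA concentration is listed at 1.68 ng/µl, had the highest WT levels of Kdr (30.8 TPM) and Tek (12.2 TPM). In CPM it had 194 for Kdr and 56.5 for Tek, below WT mouse 67-1 at 210 and 74.0. Its gene body coverage, 0.0288, was the lowest of all. Without mouse 43-3, the r between members of all 45 pairs in CPM ran from 0.06 to 0.92, with a median of 0.47.

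Aplnr had its closest partner among the 10, Eng, at rank 875 of 11335 expressed genes by r, with r = 0.47. Emcn had its closest partner among the 10, Tie1, at rank 548 with r = 0.76. For Flt1 the closest was Kdr at rank 64 with r = 0.69, and for Vwf it was Eng at rank 214 with r = 0.54.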
